A study of Homo sapiens with 16 samples.

Results

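This set holds the probes whose signal stood above control after 12 h with both drugs in HT1080 cells, a human fibrosarcoma line of mesenchymal origin. It has 148 of the 24350 probes that the bead arrays name by GI sequence numbers, or 0.608%. Members were chosen by the authors' processed intensity table. Each intensity was raised to at least 32 and put on a log2 scale, and the mean of the 2 control arrays was taken off the mean of the 2 arrays of a group. This difference, called the rise here, had to reach 0.8, or 1.74-fold, in both 12 h groups. In addition, the detection score had to be at least 0.99 on all 4 of these arrays, which 6549 probes reached. The same threshold at A0 12 h alone kept 874 probes and at cisplatin 12 h alone 436, so the members make up 16.9% of the first list and 33.9% of the second.

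The study followed total RNA of cells exposed to 25 µM of either cisplatin or A0, a thioxotriazole complex of copper(II), on 16 single-colour arrays. A0 was sampled at 1, 3, 6 and 12 h and cisplatin at 3, 6 and 12 h, with 2 arrays in each of these 7 treated groups and 2 arrays of control cells. All cells were of the 1 line and grew in the same serum-containing medium. At what time the control cells were taken is not stated, nor whether both arrays of a group stand for separate cultures, and a p-value therefore speaks only of how far these arrays scatter, part or all of which may be technical. In bulk RNA, a change in few cells and a smaller one in all cells cannot be told apart.

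As background, cisplatin is a platinum drug that forms adducts with DNA, and cells answer such damage with checkpoint and repair programmes in which p53 drives many transcripts upward. Copper complexes can disturb protein folding and redox balance, and the study was concerned with stress of the endoplasmic reticulum. That stress sets off the unfolded protein response, which raises chaperones and the transcription factor ATF4. Some stress-induced transcripts are known targets of both programmes. Whether any member belongs to one of them could not be looked up: the files do not pair GI numbers with gene names, and 0 of the numbers matched a name or accession in the reference table. The cell line's markers could not be checked for the same reason. Members are therefore described by their levels, their timing and their probe class, and at most 4 are named by their probe ID.

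Single arrays detected 7626 to 9640 probes, with medians of 41 to 42 beads a probe and of 93.5 to 130.7 for the scanner signal. At 12 h the replicates of cisplatin were uneven: the median rise of the members was 1.25 on replicate 1 and 0.93 on replicate 2, while the median over all tested probes was 0.11 and -0.03. The rise of single members at cisplatin 12 h rests on the mean of these 2 arrays. The A0 12 h arrays gave 1.27 and 1.38.

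The rule favours probes that read low on the controls, and intensities of different probes do not rank their transcripts. The members' median control intensity was 89.8, against 294 for all 6549 probes detected in both 12 h groups, and it ran from 2.7 to 1383 over the members. Both controls detected 118 members, 1 control detected 12, and neither detected 18. Of the probes detected in both 12 h groups 98.9% were detected on both controls, against 79.7% of the members. For 18 members both control values lay below the floor of 32, and for a further 11 members 1 control value did. The floor made the computed 12 h rise of these members smaller. Whether their true rise was larger or smaller is not known, as the rule favours low control readings. At 12 h the median intensity of the members was 278 with A0 and 232 with cisplatin. The probe class, which the rule did not use, is read from the suffix of the probe name. Probes for genes with a single transcript made up 132 members, or 89.2%, against 82.4% of the 9293 probes tested below. Probes shared by all variants of a gene numbered 14, or 9.46% against 11.7%, and probes for 1 of several variants numbered 2, or 1.35% against 5.88%. Members could come only from the 6549 probes detected in both 12 h groups, whose classes were not counted. The 2 sides of these shares therefore differ in the detection filter as well.

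The size of the 12 h rise chose the members and is given as a description. With A0 it had a median of 1.28 and ran from 0.81 to 6.28. With cisplatin it had a median of 1.06 and ran from 0.80 to 2.78. The smaller of both values reached 1 in 68 members, 1.5 in 15 and 2 in 5. All 148 pass the threshold in each drug by construction, where 12.1% of all tested probes did at A0 12 h and 6.95% at cisplatin 12 h. Just inside the rule, the 3 members with the smallest values stood at 0.98, 1.78 and 0.89 with A0 and at 0.80, 0.81 and 0.81 with cisplatin. Just outside it, 3 probes stood at 1.07, 0.80 and 0.98 with A0 and at 0.80, 0.90 and 0.80 with cisplatin, each a little under the threshold in 1 drug. In the plot of 12 h differences most members crowd into the corner near both thresholds, and a tail runs toward high A0 values.

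**Figure D1:**
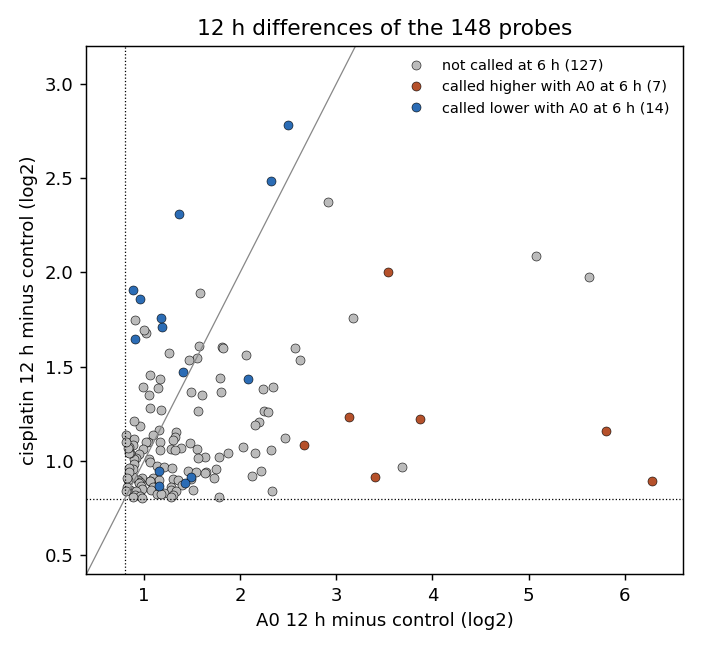
Each point is 1 of the 148 probes, with its A0 12 h minus control difference on the horizontal axis and its cisplatin 12 h minus control difference on the vertical axis (log2 of deposited intensity with a floor of 32). Dotted lines mark the threshold of 0.8, the grey line marks equal values, and colours mark the 7 probes called higher and the 14 called lower with A0 than with cisplatin at 6 h.

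Most members already stood above control before 12 h with either drug. With A0 the median rise was 0.43 at 1 h, 0.61 at 3 h, then 0.86 at 6 h, ahead of 1.28 at 12 h. With cisplatin it was 0.64 at 3 h and 1.02 at 6 h, ahead of 1.06 at 12 h. The median of all 9293 tested probes lay between 0.03 and 0.13 in every group. The 2 arrays of a group gave close medians at 3 h, at 0.67 and 0.62 with A0 and 0.71 and 0.64 with cisplatin. At 6 h they gave 0.75 and 0.94 with A0, both below the 1.04 and 1.00 with cisplatin. At 12 h they gave 1.27 and 1.38 with A0, and a wider spread of 1.25 and 0.93 with cisplatin. These values share the control arrays with the rule, which favours probes that read low on the controls, so no test is attached to them. Time in culture or handling and the drugs themselves cannot be told apart, as no control was matched in time.

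**Figure D2:**
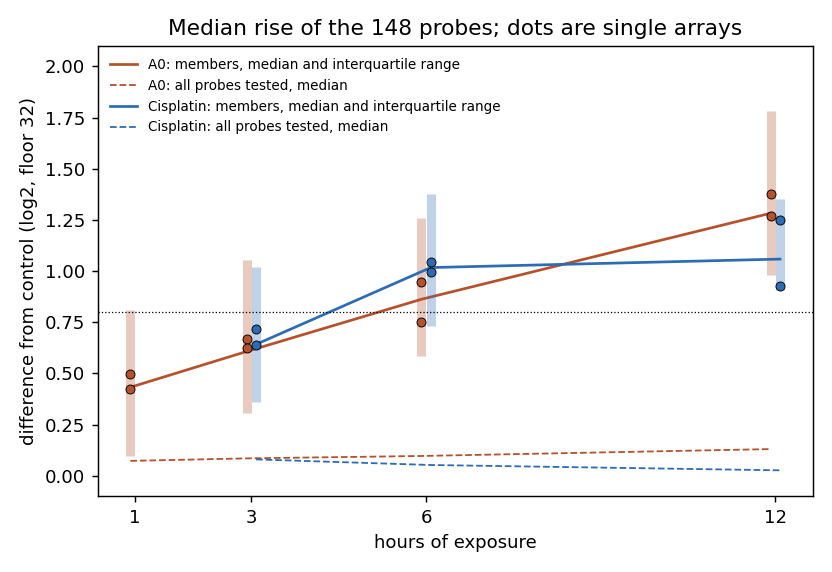
Lines give the median difference from control over the 148 probes against hours of exposure, with bars for the interquartile range and dots for the median of each single array; dashed lines give the median of all 9293 tested probes. The A0 line climbs from 0.43 at 1 h to 1.28 at 12 h, while the cisplatin line reaches 1.02 at 6 h and 1.06 at 12 h. The 2 cisplatin arrays at 12 h gave 1.25 and 0.93.

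Counted by the threshold of 0.8, the members filled up at different paces. With A0, 38 members had reached it at 1 h, 59 at 3 h and 80 at 6 h. All tested probes did so at a rate of 7.18%, 6.51% and 6.95%, and the shares of the members were 25.7%, 39.9% and 54.1%. With cisplatin, 56 members had reached it at 3 h and 105 at 6 h, or 37.8% and 70.9%, beside 5.57% and 6.64% of all tested probes. The controls chose the members and enter these shares too, so the gap to the background is not a finding. Members below control were few, with 25 at A0 1 h, 11 at A0 3 h, 2 at A0 6 h, 12 at cisplatin 3 h and 0 at cisplatin 6 h. In all, 115 members stood above control in all 7 treated groups, 22 had a rise of at least 0.8 in all 7, and 24 reached 0.8 at 12 h only. On the quantile-normalised scale used for the tests, 63 members had all 14 treated arrays above both controls. The counts of members above or below control have no share of all tested probes beside them. They also use arrays that chose the members, so they are a description.

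The first time from which a member stayed at or above 0.8 also differed in its spread. With A0 it was 1 h for 28 members, 3 h for 20, 6 h for 32 and 12 h for 68. With cisplatin it was 3 h for 50, 6 h for 55 and 12 h for 43. The 28 earliest members of A0 had a median rise of 1.56 at 3 h, 1.61 at 6 h and 2.14 at 12 h. The sets that started at 3, 6 and 12 h had 12 h medians of 1.71, 1.47 and 1.06. This order holds for medians only, as some of the largest 12 h rises belonged to members that started later than 1 h. The 50 earliest members of cisplatin had medians of 1.19, 1.41 and 1.21 at these times, so their median over both arrays did not gain after 6 h. A further view is the share of the 12 h rise that was present at 6 h, which had a median of 64.2% with A0 and 91.7% with cisplatin. From 6 to 12 h, 136 members gained with A0 and 12 lost, by a median of 0.50. With cisplatin 83 gained and 65 lost, by a median of 0.09. The 12 h arrays of both drugs chose the members, so this late step is a description. For cisplatin it also depends on the array. Over the 148 members the median rise was 1.04 and 1.00 on the 6 h arrays, then 1.25 and 0.93 on the 12 h arrays. Replicate 1 thus stood higher at 12 h and replicate 2 lower.

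**Figure D3:**
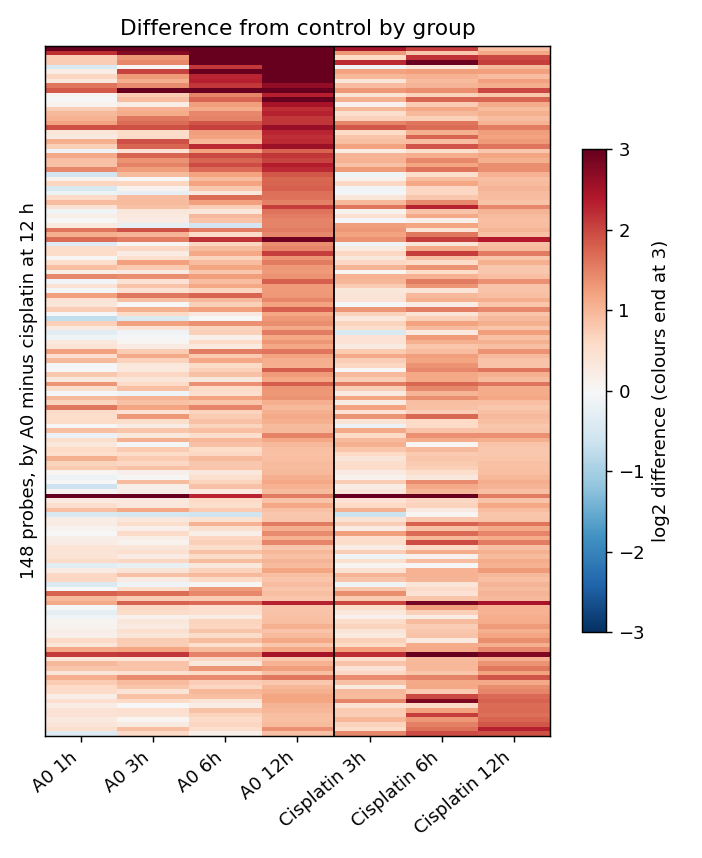
Rows are the 148 probes, ordered by their A0 minus cisplatin difference at 12 h, and columns are the 7 treated groups; colour gives the log2 difference from control, with colours ending at 3. The A0 columns darken toward 12 h, most of all in the top rows. The cisplatin 6 h and 12 h columns, each a mean of 2 arrays, look alike.

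Members with larger 12 h values also had larger medians at earlier times, in values that share the controls. The 15 members with a smaller 12 h value of at least 1.5 had a median rise of 1.09, 1.44 and 1.74 with A0 at 1, 3 and 6 h and of 1.35 and 1.89 with cisplatin at 3 and 6 h. For the 53 members between 1 and 1.5 these medians were 0.50, 0.84, 0.94, 0.75 and 1.06. For the 80 members under 1 they were 0.37, 0.49, 0.68, 0.53 and 0.86. Both controls detected 11 of the 15, 38 of the 53 and 69 of the 80.

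Steps in time between groups that the rule did not use could be tested. The fit was limma's moderated test over 9293 probes and all 16 arrays, on quantile-normalised log2 intensities, with a Benjamini-Hochberg adjusted p of 0.05. From 1 to 6 h of A0, 6 members rose and 0 fell, where 0.344% of all tested probes rose and 0.312% fell. Those 6 make up 4.05% of the members. They gained between 1.42 and 2.54 on the log2 scale, with limma adjusted p from 0.000771 to 0.0224. On the rule's scale their median rise went from 0.68 at 1 h to 1.54, 2.74 and 3.47 at 3, 6 and 12 h. The 6 were taken for this step, so these medians are a description. The count of 6 became 11 with the replicate number as a block, 0 with only the arrays compared in the fit, 3 when A0 1 h replicate 1 was left out, 2 when its replicate 2 was, and 10 when A0 6 h replicate 1 was.

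The shorter steps gave no calls among the members. From 1 to 3 h of A0 and from 3 to 6 h of A0, 0 members and 0% of all tested probes were called by limma. At an unadjusted p under 0.05, 15 members and 361 of all probes passed the first step, or 10.1% and 3.88%. The second step was passed by 22 members and 481 of all probes, or 14.9% and 5.18%. From 3 to 6 h of cisplatin 0 members were called, while 0% of all tested probes rose and 0.0968% fell. Here 43 members, or 29.1%, had an unadjusted p under 0.05, against 901 probes, or 9.7%, of all tested. The direction was mostly upward: 133 of 148 members were higher at cisplatin 6 h than at 3 h, with a median of 0.39 on the normalised log2 scale against 0.02 for all tested probes. With A0, 106 members were higher at 3 h than at 1 h, with a median of 0.14, and 113 were higher at 6 h than at 3 h, with a median of 0.23. The medians of all tested probes for these steps were -0.0033 and -0.0064. The count of 0 for A0 from 1 to 3 h became 1 with a trended and robust variance and 2 with array weights. Leaving out A0 6 h replicate 2 gave 3 calls for A0 from 3 to 6 h. Leaving out A0 3 h replicate 1, A0 3 h replicate 2 or cisplatin 3 h replicate 2 gave 1 call for cisplatin from 3 to 6 h.

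At 3 h the members' median level was nearly the same with both drugs, while some members differed. The A0 minus cisplatin difference, in which the controls cancel, had a median of 0.00 on the rule's scale, and its interquartile range ran from -0.22 to 0.24. A0 was the higher in 72 members and the lower in 76, and 115 differed by less than 0.5. A0 was higher by at least 1 in 4.05% of the members and lower by at least 1 in 1.35%. Of all tested probes 0.743% and 0.764% were. Neither drug was ahead as a rule at this time. On the normalised log2 scale, the A0 arrays lay wholly above the cisplatin arrays in 32 members and wholly below in 20. Of all tested probes 15.6% and 14.8% did so. By limma 1 member was higher with A0 and 0 were lower, beside 0.0108% of all tested probes in each direction. At an unadjusted p under 0.05, 19 members passed against 508 of all probes, or 12.8% and 5.47%. The member called at 3 h had control intensities of 40.5 and 63, then 604 and 502 at A0 3 h against 133 and 116 at cisplatin 3 h. Its log2 difference at 3 h was 2.01 (SE 0.257, limma adjusted p = 0.00944). The call was lost with array weights, with only the arrays compared, and without A0 3 h replicate 1 or either cisplatin 3 h array. It was called again at 6 h, by 2.001 (limma adjusted p = 0.000888).

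At 6 h members differed between the drugs in both directions. The median A0 minus cisplatin difference was -0.12 on the rule's scale, against 0.06 for all tested probes. The members' interquartile range ran from -0.48 to 0.30. A0 was the lower in 85 members and the higher in 63, and 85 differed by less than 0.5. A0 was lower by at least 1 in 8.78% of the members and higher by at least 1 in 7.43%. Of all tested probes 4.68% and 4.58% were. On the normalised log2 scale, the A0 arrays lay wholly below the cisplatin arrays in 52 members and wholly above in 30. Of all tested probes 26.3% and 24.2% did so. By limma 14 members were lower with A0 than with cisplatin and 7 higher, or 9.46% and 4.73% of the members, beside 4.84% and 3.29% of all tested probes. At an unadjusted p under 0.05, 41 members and 2086 of all probes passed, or 27.7% and 22.4%. The larger number of lower calls depended on each of the 4 arrays compared. Leaving out A0 6 h replicate 1 gave 6 lower and 8 higher, and leaving out its replicate 2 gave 8 and 8. Without cisplatin 6 h replicate 1 there were 5 lower and 7 higher, and without its replicate 2 there were 2 and 4. With only these 4 arrays in the fit, 5 were lower and 4 higher.

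The 7 members that were higher with A0 at 6 h were also higher with A0 at 12 h. Their differences ran from 1.00 to 3.18 on the normalised log2 scale, with limma adjusted p up to 0.0226. On the rule's scale their median rise with A0 was 1.62, 2.02, 3.15 and 3.54 at 1, 3, 6 and 12 h. With cisplatin it was 1.20, 1.05 and 1.16 at 3, 6 and 12 h. At 12 h the A0 lead of these 7 was 1.54 to 5.39. On the normalised log2 scale both A0 arrays lay above both cisplatin arrays in each, as in 29% of all tested probes. The 12 h arrays chose the members and the 7 were taken for a high A0 value at 6 h, so this is a description. Both controls detected 5 of the 7. Of the 7, 4 were also among the 6 called higher at A0 6 h than at A0 1 h. Both tests use the same A0 6 h arrays.

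The 14 members that were lower with A0 at 6 h ran the other way at first. Their differences ran from -2.16 to -0.78, with limma adjusted p from 0.00142 to 0.049. Their median rise with cisplatin was 1.22 at 3 h, 1.83 at 6 h and 1.68 at 12 h. With A0 it was 0.40, 0.58 and 0.55 at 1, 3 and 6 h and 1.28 at 12 h. By 12 h the gap had narrowed to a median of -0.23, with A0 still the lower in 9 of the 14 and the higher in 5. On the normalised log2 scale both A0 arrays lay below both cisplatin arrays at 12 h in 5 of the 14 and above in 1. Of all tested probes 31.6% and 29% did so. The rule itself asks for an A0 rise of 0.8 at 12 h, and the 14 were taken for a low A0 value at 6 h, so this narrowing is a description. Both controls detected all 14.

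Whether the step from 3 to 6 h differed between the drugs was tested as an interaction, and limma called 0 members and 0% of all tested probes. At an unadjusted p under 0.05, 13 members and 666 of all probes passed, or 8.78% and 7.17%. The interaction was below 0 in 100 of 148 members, with a median of -0.10 on the normalised log2 scale against -0.02 for all tested probes.

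At 12 h the members' median lay on the A0 side, close to that of all tested probes, in values that the rule used. The median A0 minus cisplatin difference was 0.19 on the rule's scale, against 0.14 for all tested probes, and A0 was the higher in 98 members and the lower in 50. By array, the members' median rise was 1.27 and 1.38 with A0 and 1.25 and 0.93 with cisplatin. Cisplatin replicate 1 thus lay close to the A0 arrays, and the lead rests largely on cisplatin replicate 2. A0 was higher by at least 1 in 19 members and lower by at least 1 in 1. These are 12.8% and 0.676% of the members, beside 10.8% and 8.66% of all tested probes. On the normalised log2 scale, the A0 arrays lay wholly above the cisplatin arrays in 44 members and wholly below in 18. Of all tested probes 29% and 31.6% did so. A member had to reach 0.8 with both drugs, which limits how far either can fall behind. Of the 19 members that A0 led by at least 1 at 12 h, 17 were also higher with A0 at 6 h. The split uses values of the rule, and all tested probes were not split in the same way, so this count has no background. Their median rise with A0 was 0.73, 1.33, 2.12 and 3.14 at 1, 3, 6 and 12 h, against 0.99, 1.06 and 1.12 with cisplatin at 3, 6 and 12 h. For the 128 members within 1 of each other the medians were 0.41, 0.55, 0.78 and 1.17 with A0 and 0.61, 1.00 and 1.04 with cisplatin.

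**Figure D4:**
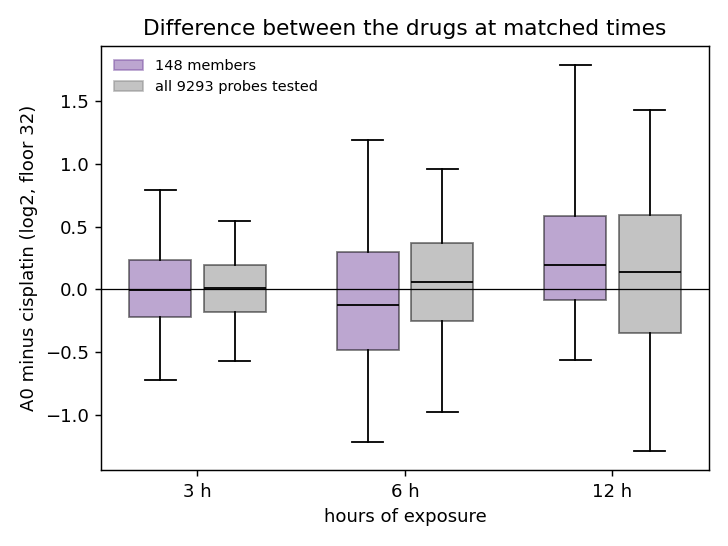
Boxes give the median and interquartile range of the A0 minus cisplatin difference (log2, floor of 32) at each matched time, with whiskers at the 5th and 95th percentiles, for the 148 probes and for all 9293 probes tested. The members' median is 0.00 at 3 h, -0.12 at 6 h and 0.19 at 12 h.

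The member with the largest smaller 12 h value was GI_7019524-S, a probe for a gene with a single transcript. Its deposited intensity was 94 and 103.6 on the controls. With A0 it read 439 and 401 at 1 h, 487 and 382 at 3 h, 298.5 and 260.1 at 6 h, then 616 and 500.3 at 12 h. With cisplatin it read 611 and 338 at 3 h, 841 and 1072 at 6 h, then 1027 and 447 at 12 h. All 14 treated arrays lay above both controls, and the A0 6 h arrays were the lowest of the treated ones. The rise was 2.49 with A0 and 2.78 with cisplatin at 12 h, the latter from arrays that differ more than in any other group. The A0 minus cisplatin difference at 6 h was -1.68 on the normalised log2 scale (SE 0.315, limma adjusted p = 0.00562), a call lost without cisplatin 6 h replicate 2 (adjusted p = 0.0759). At 3 h the difference was -0.06 (adjusted p = 0.998).

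The member that A0 led by most at 12 h was GI_32698821-S. Its intensity was 203 and 139 on the controls. With A0 it read 1672 and 1104 at 1 h, 2944 and 1942.5 at 3 h, 4370 and 6425 at 6 h, then 10240 and 16618 at 12 h. With cisplatin it read 1248 and 708 at 3 h, 1105 and 458 at 6 h, then 400 and 243 at 12 h. Its A0 values were higher at each later time, while its cisplatin group means were lower at each later time, with overlapping arrays at 3 and 6 h, and ended at a rise of 0.90, close to the threshold. The A0 12 h rise of 6.28, or 77.8-fold, was the largest of the set. At 6 h A0 exceeded cisplatin by 2.74 on the normalised log2 scale (SE 0.418, limma adjusted p = 0.00173). At 3 h the difference was 1.33 (limma adjusted p = 0.571). From 1 to 6 h of A0 it stood 1.78 higher (limma adjusted p = 0.0755), which passed with 75th percentile centring (2.01, adjusted p = 0.0382). From 3 to 6 h of cisplatin the difference was -0.41 (adjusted p = 0.795).

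The member that cisplatin led by most at 12 h was GI_39930474-S. Its intensity was 72.4 and 110.6 on the controls. With A0 it read 65.4 and 71.6 at 1 h, 109.6 and 159.8 at 3 h, 123 and 81 at 6 h, then 224.5 and 122.2 at 12 h. With cisplatin it read 225 and 264 at 3 h, 345 and 353 at 6 h, then 351 and 320.1 at 12 h. Every cisplatin array lay above every control array, while the A0 arrays overlapped the controls at 3 and 6 h. Both A0 1 h arrays lay below both controls. At 6 h it was lower with A0, with a difference of -1.60 (SE 0.276, limma adjusted p = 0.00351), and at 3 h the difference was -0.80 (limma adjusted p = 0.66).

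The member with the most negative A0 minus cisplatin difference at 6 h was GI_22035666-S. Its intensity was 87.5 and 74.8 on the controls. With A0 it read 124 and 105 at 1 h, 106 and 139.5 at 3 h, 98.3 and 115.5 at 6 h, then 191.5 and 174.5 at 12 h. With cisplatin it read 251 and 198 at 3 h, 441 and 716.5 at 6 h, then 411 and 182 at 12 h. Its cisplatin arrays were highest at 6 h, and at 12 h replicate 2 fell within the range of the A0 arrays in these deposited intensities. The difference at 6 h was -2.16 (SE 0.313, limma adjusted p = 0.00142), and at 3 h it was -0.81 (limma adjusted p = 0.794). From 1 to 6 h of A0 it was -0.03 (adjusted p = 0.987), and from 3 to 6 h of cisplatin it was 1.25 (adjusted p = 0.185).

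**Figure D5:**
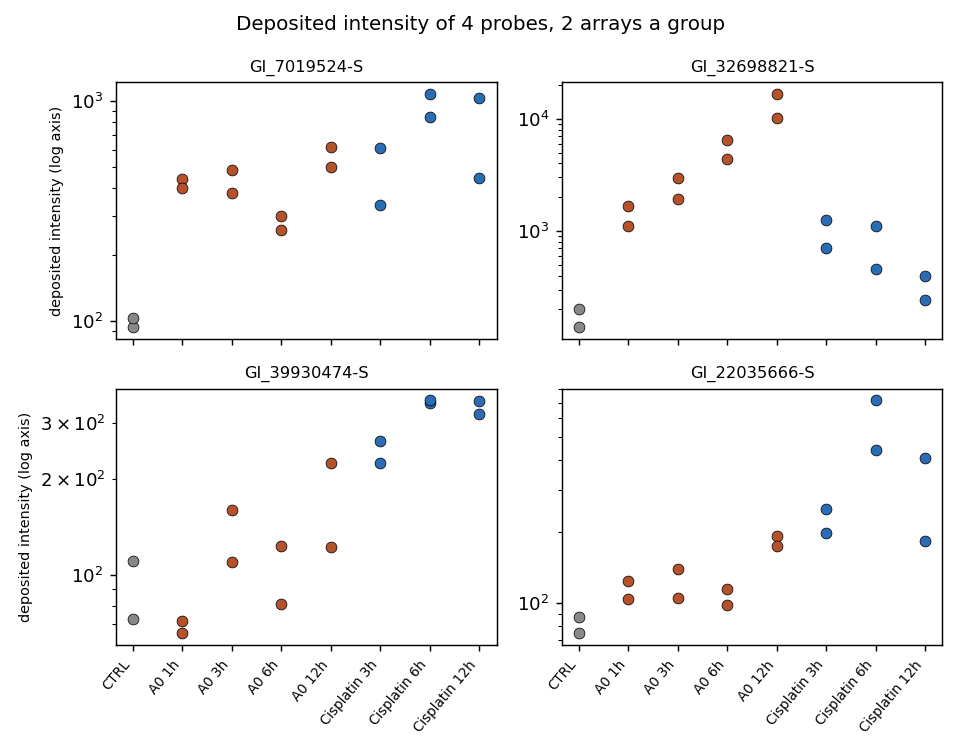
Deposited intensity on a log axis for GI_7019524-S, GI_32698821-S, GI_39930474-S and GI_22035666-S, with 1 dot per array and 2 arrays in each of the 8 groups (grey for control, red-brown for A0, blue for cisplatin). GI_32698821-S reaches 10240 and 16618 at A0 12 h, while GI_39930474-S stays between 225 and 353 on all 6 cisplatin arrays.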

How the data were processed

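The authors deposited, per array, a linear mean intensity for each probe, its bead standard deviation, bead counts, and a detection score given as a fraction from 0 to 1, per the file headers. BeadStudio 1.5.1.3 made them, per the submitters' processing notes. Their second table holds processed intensity values; each array in it was a straight line of its scanner signal (slope 0.848 to 2.55, largest residual 0.177, column medians 10.9 to 21.3). Its scale is thus linear, and no source used here names the normalisation. It served the rule for the members. For tests, limma 3.58.1 (R 4.3.3) corrected the scanner signals by its neqc function, with background from the detection scores, an offset of 16, quantile normalisation and log2. Probes detected on both arrays of at least 1 group were tested (9293), and all members pass this filter through the 12 h groups alone. A model of group means over 16 arrays left 8 residual degrees of freedom. The test was checked on simulated data. The tested differences are between groups other than the controls and the 12 h groups. The control and 12 h arrays still enter the normalisation and the estimate of each probe's spread. The number of arrays limits the precision.

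The members and lists were chosen with earlier results of these data known. The gene lists drawn up for stress pathways and cell type markers could not be applied without gene names. The naming rule for that case took 4 probes: the largest smaller 12 h rise, the largest and the most negative A0 minus cisplatin rise at 12 h, and the most negative limma difference at 6 h. Alternatives covered the rule's thresholds, normalisation, filter, variance model, array weights, a replicate block, the arrays in the fit and leaving out each array. No probe sequence was used here.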

Additional observations from a re-analysis of the deposited data

Results flagged for a closer look

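The response at a matched time differed between the drugs by limma's direct test at 21 members at 6 h and at 1 member at 3 h. Of all tested probes 3.29% were called higher with A0 at 6 h and 4.84% lower, against 4.73% and 9.46% of the members. The 21 became 6 without cisplatin 6 h replicate 2, and the call at 3 h was lost under 5 alternatives. Among the probes named, the A0 minus cisplatin difference at 6 h was -1.68 for GI_7019524-S, 2.74 for GI_32698821-S, -1.60 for GI_39930474-S and -2.16 for GI_22035666-S on the normalised log2 scale, each past the limma threshold. With 2 arrays a group, no group was large enough to look for single outlying arrays.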

How the results depend on the processing

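The rule kept 296 probes at a threshold of 0.6 and 68 at 1.0, and 86 with quantile-normalised intensities in place of the deposited table, of which 83 were members. Other floors and detection limits gave counts within 1.5 times of 148, and leaving out 1 control or 12 h array gave 117 to 217, of which as few as 91 were members (without cisplatin 12 h replicate 1; 128 and 121 without control 1 and 2). With only the arrays compared in the fit, which leaves fewer degrees of freedom, the members called were 9 for A0 against cisplatin at 6 h, 0 at 3 h and 0 for A0 from 1 to 6 h. Array weights gave 0 at 3 h and 2 for A0 from 1 to 3 h, where a trended and robust variance gave 1. The replicate block gave 11 for A0 from 1 to 6 h and moved no other member count by over 1.5 times; the labels do not say that a number marks a shared culture or day, while differences between replicates 1 and 2 correlated across probes at 0.13 to 0.36 between compared groups. Over fits that each lacked 1 array, counts ran from 6 to 22 at 6 h, from 0 to 1 at 3 h, from 2 to 10 for A0 from 1 to 6 h, from 0 to 3 for A0 from 3 to 6 h and from 0 to 1 for cisplatin from 3 to 6 h, and stayed 0 for A0 from 1 to 3 h and for the interaction. Signs turned only for probe differences that passed no threshold: over the same fits the A0 minus cisplatin difference of GI_7019524-S at 3 h ran from -0.44 to 0.32 (0.05 when A0 3 h replicate 2 was left out), that of GI_32698821-S from 3 to 6 h of cisplatin from -0.9996 to 0.18, and that of GI_22035666-S from 1 to 6 h of A0 from -0.15 to 0.087 (0.06 when A0 1 h replicate 1 was left out). The cause of these moves was not tested.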
